A study of Mus musculus with 10 samples.

Results

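The enzymes described here make or hydrolyse cyclic AMP in T cells: the phosphodiesterases Pde3b, Pde7b, Pde7a, Pde4a, Pde4b, Pde4d, Pde8a and Pde2a, and the adenylyl cyclases Adcy6 and Adcy7. They are 10 genes of the 22180 that the array measured under a single gene name. Members were chosen by function after earlier results of the same comparison were known. Where a gene had several probe sets, the one used was selected on its mean log2 signal across the 10 arrays, taking the brightest, which is the only measured value in the rule. The samples were regulatory T (Treg) cells, a CD4 T cell lineage that expresses Foxp3 and keeps immune responses in check, sorted without culture from mouse mixed bone marrow chimeras, in which marrow of more than 1 genotype repopulates a host. There were 5 wild type (WT) samples and 5 samples labelled LKB1-deficient, with deletion of Stk11, the gene for the kinase LKB1. Both groups came from such chimeras, and no treatment of the cells before lysis is given for either. The labels used here name neither the deleting Cre nor the strain, age or host of the mice, and do not say whether samples came from separate animals. The p-values therefore reflect the variation among these samples alone, part or all of which may be technical.

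Cyclic AMP is a second messenger. Adenylyl cyclases make it when receptors coupled to the stimulatory G protein are engaged, protein kinase A and the exchange factor EPAC carry its signal, and phosphodiesterases end the signal by hydrolysing it to AMP. In T cells a high level of cyclic AMP restrains activation through the antigen receptor, and Treg cells are known for a high level of it, which they can pass to other cells. LKB1 activates AMPK and its relatives, among them the salt-inducible kinases, which hold the CREB coactivators of the CRTC family in the cytoplasm and which protein kinase A inhibits.

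Values are log2 signals, so a difference of 1 is a doubling, and levels of different genes cannot be set against each other because each probe set has its own response. Differences are LKB1-deficient minus WT, with the standard error (SE) of a limma fit over all 22180 genes. A gene is called where its p-value, adjusted by the Benjamini-Hochberg method over all genes, is under 0.05. Array medians over 41345 probe sets were 4.83 to 4.86 in WT and 4.88 to 4.94 in LKB1-deficient samples. Stk11 was at 6.78 ± 0.15 (SD, n = 5) and 6.42 ± 0.37 (SD, n = 5), and 3 of the 5 LKB1-deficient arrays lay below every WT array, with limma adjusted p = 0.335. LKB1-deficient arrays 1 to 5 were at 6.57, 6.01, 6.05, 6.71 and 6.78 and WT arrays at 6.61 to 6.95, so arrays 4 and 5 lay within the WT range. The Stk11 difference was -0.36 over all arrays. Without LKB1-deficient arrays 1, 4 and 5, where markers of other cell types were raised (below), it was -0.75 (limma adjusted p = 0.0178). With the means of the macrophage and B cell markers as covariates it was -0.76 (0.0125). Of 23 alternatives only these 2 were past the threshold, and the part of other cells in the Stk11 signal was not tested. Stk11 was higher on LKB1-deficient arrays 1, 4 and 5 than on arrays 2 and 3. A bigger fall without arrays 1, 4 and 5 therefore follows from which arrays were dropped. The covariate fit leans on the same arrays, so neither fit is an independent check of the deletion. The labels do not name the deleted exons, so this probe set checks the labels only in part. The T cell and Treg markers were strong on all arrays. The mean of 8 such markers was 10.86 to 10.93 on WT arrays. On LKB1-deficient arrays 1 to 5 it was 10.34, 10.95, 11.01, 10.75 and 10.66, so arrays 1, 4 and 5 lay below the WT range. Estimates were below 0 for 7 of the 8, with none called. Foxp3 was low on LKB1-deficient array 1 alone, at 9.86 against 10.95 to 11.19 in WT.

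Of the 10 members, 3 were called higher in LKB1-deficient Treg cells, the phosphodiesterases Pde7b and Pde3b and the cyclase Adcy6. None was called lower, and 7 were not called. Over all genes 0.234% were called higher and 0.83% lower, 52 and 184 genes, or 67 and 103 after a second quantile normalization. In 4 members, these 3 and Pde4d, every LKB1-deficient array lay above every WT array, a pattern that 0.996% of all genes had. In no member did every LKB1-deficient array lie below every WT array, as in 3.71% of all genes. Estimates were above 0 in 7 members, against 50.8% of all genes, and below 0 in 3, and 5 members had an unadjusted p under 0.05, against 14% of all genes. The members had a median difference of 0.30 against 0.00342 over all genes. The members were chosen with the differences of Pde7b, Pde3b and Adcy6 known, so these counts describe the list and carry no weight of their own.

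**Figure D1:**
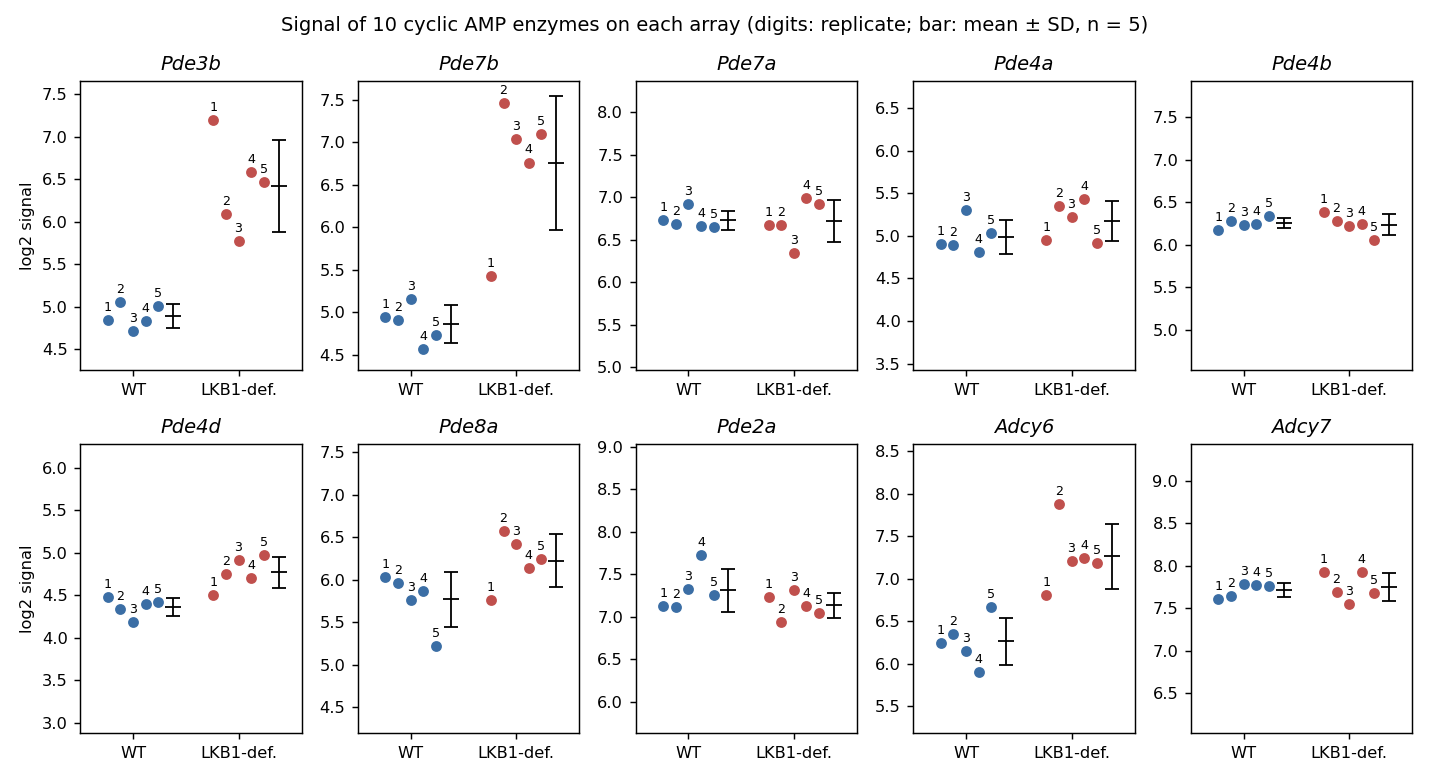
Log2 signal of each of the 10 members (y axis, 3.4 log2 units high in every panel) on 5 WT arrays (blue) and 5 LKB1-deficient arrays (red), with the replicate number above each point and the mean ± SD (n = 5) as a bar. The groups do not overlap in Pde3b, Pde7b, Adcy6 and Pde4d, with gaps of 0.71, 0.27, 0.14 and 0.03. They overlap in Pde7a, Pde4a, Pde4b, Pde8a, Pde2a and Adcy7.

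Pde3b encodes a membrane-bound phosphodiesterase that hydrolyses cyclic AMP and is inhibited by cyclic GMP. Its gene is known to be held down by Foxp3 in Treg cells. WT arrays 1 to 5 were at 4.85, 5.06, 4.72, 4.83 and 5.01, and LKB1-deficient arrays 1 to 5 at 7.19, 6.09, 5.77, 6.59 and 6.47. The WT arrays were tightly grouped, the LKB1-deficient arrays spread over 1.42 log2 units with array 1 on top, and a gap of 0.71 separated the lowest of them from the highest WT array. Pde3b rose by 1.53 on the log2 scale (SE 0.21, 95% confidence interval 1.07 to 1.99), or 2.88-fold, with limma adjusted p = 0.00893. It had the 7th largest difference among the 52 genes called higher. Array 1, where Pde3b was highest, was also the array with the lowest Foxp3, and the other 4 LKB1-deficient arrays had Foxp3 at 11.10 to 11.50. The part of Foxp3 in the difference of Pde3b was not tested. Without array 1 the difference was 1.34 with limma adjusted p = 0.00214.

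Pde7b and Pde7a encode the PDE7 pair, which are specific for cyclic AMP and bind it with high affinity. Pde7b was at 4.94, 4.91, 5.16, 4.57 and 4.74 on WT arrays 1 to 5 and at 5.42, 7.46, 7.04, 6.76 and 7.10 on LKB1-deficient arrays 1 to 5. The 4 LKB1-deficient arrays other than array 1 lay far above WT, and array 1 lay just above, 0.27 from the highest WT array. Pde7b rose by 1.90 (SE 0.30, 95% confidence interval 1.24 to 2.55), or 3.72-fold, with limma adjusted p = 0.0163, and had the 2nd largest difference among the 52 genes called higher. Without LKB1-deficient array 1 the difference was 2.23 with limma adjusted p = 3.8e-05. Without WT array 4, the lowest, it was 1.82 and just missed the threshold (adjusted p = 0.0565).

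Pde7a, the PDE7 gene usually described in T cells, gave 6.73, 6.68, 6.91, 6.66 and 6.64 on the WT arrays and 6.67, 6.67, 6.35, 6.99 and 6.91 on the LKB1-deficient arrays. The groups overlapped throughout. Its difference was -0.01 (95% confidence interval -0.27 to 0.26, limma adjusted p = 0.986), so a change as large as that of Pde7b lies outside its interval, and the sign turned with a second quantile normalization (0.05). Pde7a was the only member with 2 probe sets. The dimmer of them had a difference of -0.09 (SE 0.14) and was not called either.

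The PDE4 enzymes, specific for cyclic AMP and the targets of rolipram, are the main cyclic AMP hydrolases of many immune cells. Pde4d was at 4.48, 4.34, 4.19, 4.39 and 4.42 on WT arrays and at 4.51, 4.74, 4.91, 4.71 and 4.97 on LKB1-deficient arrays. The groups did not overlap, but only 0.03 separated LKB1-deficient array 1 from the highest WT array. The difference was 0.40 (SE 0.10, 95% confidence interval 0.18 to 0.63) with limma adjusted p = 0.0937, so Pde4d was not called. Without LKB1-deficient array 1 the difference was 0.47 with limma adjusted p = 0.0274, and since array 1 was the lowest of its group its removal had to enlarge the difference.

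Pde4b, which in many cells is induced by cyclic AMP itself, hardly varied, at 6.18 to 6.34 on WT arrays and 6.06 to 6.39 on LKB1-deficient arrays. Its difference was -0.02 (95% confidence interval -0.21 to 0.17, limma adjusted p = 0.949), and the sign turned with a second quantile normalization (0.02). Pde4a lay at 4.81 to 5.31 in WT and at 4.91 to 5.44 in LKB1-deficient samples. Its difference of 0.19 (95% confidence interval -0.10 to 0.47) did not pass, with limma adjusted p = 0.574. It was 0.12 without LKB1-deficient array 4 and 0.31 with the means of the macrophage and B cell markers as covariates. Of the PDE4 members, then, Pde4d alone had groups that did not overlap, and whether its difference exceeds those of Pde4a and Pde4b was not tested.

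Pde8a encodes a high-affinity cyclic AMP phosphodiesterase that most general inhibitors of the family do not block. It was at 6.03, 5.96, 5.76, 5.86 and 5.22 on WT arrays and at 5.76, 6.57, 6.42, 6.13 and 6.24 on LKB1-deficient arrays. LKB1-deficient arrays 2 to 5 were above every WT array, and array 1 fell among them. The difference of 0.46 (SE 0.17, 95% confidence interval 0.08 to 0.84) had limma adjusted p = 0.253, and it was 0.74 with the same covariates (0.0714). Pde2a encodes a phosphodiesterase that cyclic GMP stimulates. It was at 7.13, 7.11, 7.33, 7.73 and 7.26 in WT and at 7.23, 6.94, 7.32, 7.13 and 7.05 in LKB1-deficient samples. Its difference was -0.18 (95% confidence interval -0.45 to 0.10, limma adjusted p = 0.577), the lowest of the 10 estimates, with WT array 4 above the rest. Without WT array 4 it was -0.07.

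Of the 2 cyclases Adcy6 was called and Adcy7 was not, and the difference between them was not tested. Adcy6 encodes an adenylyl cyclase that calcium and protein kinase A inhibit. WT arrays 1 to 5 were at 6.24, 6.35, 6.15, 5.90 and 6.66 and LKB1-deficient arrays at 6.80, 7.87, 7.21, 7.24 and 7.18. Every LKB1-deficient array was above every WT array, with 0.14 between LKB1-deficient array 1 and WT array 5. Adcy6 rose by 1.0 (SE 0.19, 95% confidence interval 0.60 to 1.40), or 2.0-fold, with limma adjusted p = 0.0289. The call was lost without WT array 1 (adjusted p = 0.0816), WT 2 (0.0678), WT 3 (0.0907), WT 4 (0.0792), LKB1-deficient array 3 (0.0506) or LKB1-deficient array 4 (0.0637), with differences of 0.91 to 1.02 in these fits.

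Adcy7, the cyclase most often described in lymphocytes and macrophages, was at 7.61, 7.64, 7.79, 7.77 and 7.76 in WT and at 7.92, 7.69, 7.55, 7.92 and 7.68 in LKB1-deficient samples. The difference was 0.03 (95% confidence interval -0.18 to 0.25, limma adjusted p = 0.917), and its sign turned when array medians were subtracted (-0.0045).

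**Figure D2:**
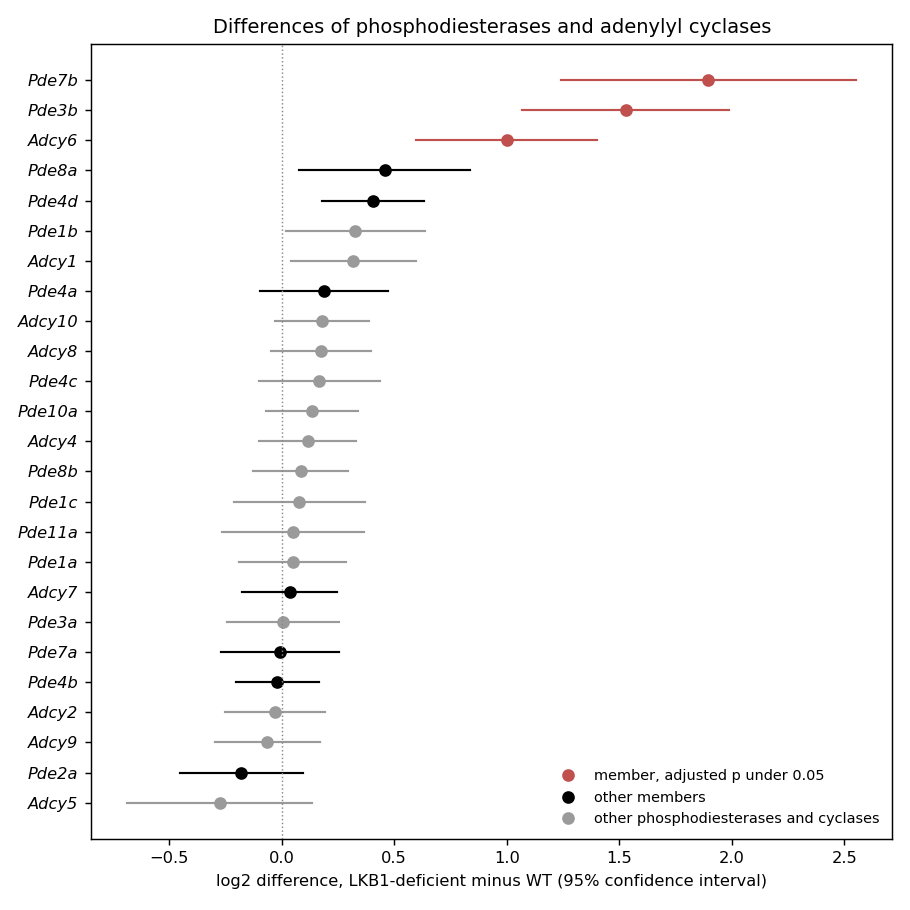
Log2 difference, LKB1-deficient minus WT, with its 95% confidence interval (x axis) for the 10 members and the 15 other cyclic AMP phosphodiesterases and adenylyl cyclases on the array (y axis). Pde7b, Pde3b and Adcy6 (red) stand to the right at 1.90, 1.53 and 1.0, and the next gene is Pde8a at 0.46.

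RefSeq promoter windows (GRCm38.p6) were given for 7 of the 10 members, 18 windows in all, and not for Pde3b, Pde7a and Adcy6. The 250 bases before the start were searched for the cyclic AMP response element (CRE), the CREB binding sequence TGACGTCA, and for its core TGACG on both strands, which the full element contains. No member window held the full element, which 1.55% of all 32851 windows of this length held. The core was in 4 of the 18 windows, in Adcy7, Pde4a, Pde4b and Pde8a, against 17.8% of all windows. The windows below belong to Pde7b, Pde4d and Pde8a, the members with the largest differences among those with a window, 5′ to 3′ on the gene's strand, with the core in capitals. The Pde7b window, chr10:20548329-20548578 on the minus strand, precedes a start inside the gene's annotated span. Those of Pde4d, chr13:108653927-108654176, and Pde8a, chr7:81213015-81213264, both on the plus strand, precede the outermost start.
Pde7b: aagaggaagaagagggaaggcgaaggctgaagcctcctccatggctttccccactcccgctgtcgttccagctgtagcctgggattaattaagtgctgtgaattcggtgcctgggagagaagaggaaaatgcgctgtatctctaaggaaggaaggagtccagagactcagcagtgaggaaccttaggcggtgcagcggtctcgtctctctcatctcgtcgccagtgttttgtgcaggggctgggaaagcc
Pde4d: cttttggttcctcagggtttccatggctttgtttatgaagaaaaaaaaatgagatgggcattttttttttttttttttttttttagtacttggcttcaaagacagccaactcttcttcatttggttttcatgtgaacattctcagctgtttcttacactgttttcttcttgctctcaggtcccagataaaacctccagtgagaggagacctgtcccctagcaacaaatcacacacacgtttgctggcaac
Pde8a: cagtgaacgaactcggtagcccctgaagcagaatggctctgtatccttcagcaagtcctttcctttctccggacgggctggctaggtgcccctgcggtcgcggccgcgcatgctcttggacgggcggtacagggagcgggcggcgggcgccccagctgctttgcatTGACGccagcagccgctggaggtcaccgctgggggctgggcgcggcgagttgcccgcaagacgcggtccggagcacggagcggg
The core lies in the Pde8a window, its first base 84 bases before the start, and in neither of the others. A match is no evidence of binding, and these letters may lie outside the windows.

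The 3 called enzymes did not rank the LKB1-deficient arrays alike. Pde3b was highest on array 1, then on arrays 4, 5, 2 and 3. Pde7b was highest on array 2, then on arrays 5, 3, 4 and 1, so array 1 was at opposite ends for these phosphodiesterases. Array 1 was also the lowest of its group for Pde4d, Pde8a and Adcy6. Over the 10 arrays, the genes whose deviations from the group means ran closest to those of Pde3b were Tle1 (Pearson r = 0.97), Lhfpl5 (0.96) and Npr1 (0.96). Those closest to Pde7b were Arfgef1 (0.98), Cdc27 (0.98) and Mir5104 (0.98), and those closest to Adcy6 were Smg1 (0.95), Ifi214 (0.93) and Daxx (0.93). These are the top of 22179 genes compared, the points share the same 10 hybridisations, and none of the 9 genes was called. LKB1-deficient array 1 stood apart in Pde7b, at 5.42 against 6.76 to 7.46, and in Arfgef1, at 7.93 against 8.32 to 8.44. The correlation of these 2 genes may thus rest largely on that array.

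Markers of other cell types moved with the LKB1-deficient label on some arrays. In bulk samples, more cells of a type and more RNA per cell cannot be told apart. The mean of 18 monocyte, macrophage and dendritic markers was 6.98 to 7.35 in WT, and on LKB1-deficient arrays 1 to 5 it was 7.61, 6.98, 7.31, 9.61 and 9.72. The mean of 11 B and plasma cell markers was 5.67 to 5.96 in WT and 7.37, 5.86, 5.92, 7.09 and 7.30 in LKB1-deficient samples. Estimates were above 0 for 17 of the 18 and for 11 of the 11 markers, with none called. LKB1-deficient arrays 1, 4 and 5 were above the WT range in both, whereas arrays 2 and 3 were not above the WT range in either.

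The 10 natural killer cell markers averaged 4.61 to 4.81 in WT and 5.63, 4.73, 4.89, 5.17 and 5.31 on LKB1-deficient arrays 1 to 5, with Klrd1 the only one called, named after its values were seen. The 6 conventional or naive CD4 T cell markers averaged 9.35 to 9.46 in WT and 9.98 on LKB1-deficient array 1, against 9.44 to 9.52 on the other 4. The 8 neutrophil markers reached 5.38 on array 1 against 4.11 to 4.53 in WT, and the 3 erythroid and platelet markers 7.16 and 7.01 on arrays 4 and 5 against 5.51 to 5.83. The mean of the CD8 T cell markers Cd8a and Cd8b1 was 6.38 to 6.71 in WT and 6.88 to 7.18 in LKB1-deficient samples, arrays 2 and 3 included, with Cd8a called and Cd8b1 not. The highest markers of these lists over all arrays were Ctss, H2-Ab1, Prf1, Cd8b1, Lef1, S100a9 and Ppbp. The file carries no detection calls, so no marker can be said to be at 0.

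On LKB1-deficient arrays 2 and 3, where the macrophage and B cell markers were not raised, Pde3b was at 6.09 and 5.77, Pde7b at 7.46 and 7.04 and Adcy6 at 7.87 and 7.21, all above every WT array. Without LKB1-deficient arrays 1, 4 and 5 the differences were 1.04 for Pde3b, 2.39 for Pde7b and 1.28 for Adcy6, with limma adjusted p of 0.00767, 0.000464 and 0.0201. This fit set 2 LKB1-deficient arrays, both of the first series of sample codes given below, against 5 WT arrays of both series. With the macrophage and B cell means as covariates they were 1.06, 2.39 and 1.30, with adjusted p of 0.0084, 0.000313 and 0.0122. Only arrays 1, 4 and 5 were above the WT range in both covariates. The 2 fits therefore lean on the same arrays and are not separate checks. Arrays 1, 4 and 5 had the highest Pde3b, so leaving them out had to shrink its difference, and array 1 had the lowest Pde7b and Adcy6. The part of other cell types in these results was not tested, be it macrophages and B cells or CD8, natural killer and naive T cells.

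**Figure D3:**
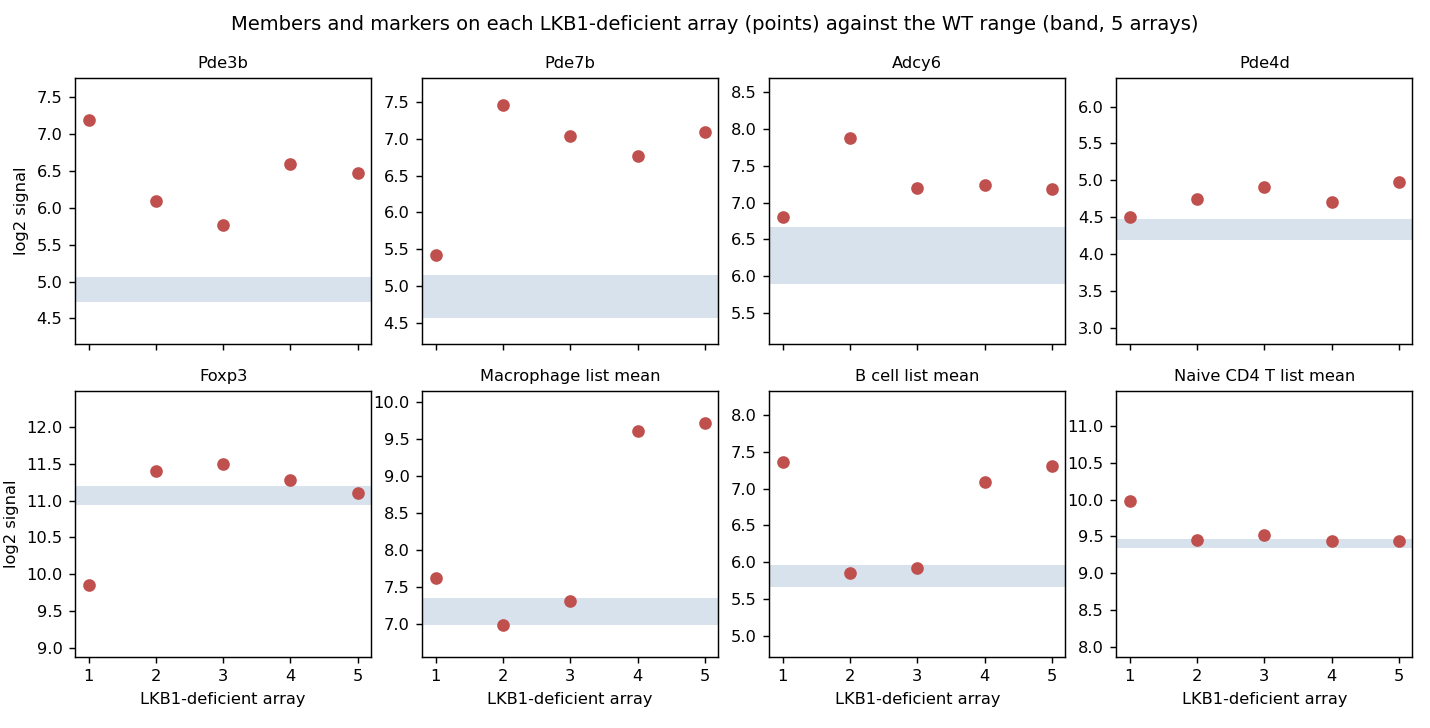
Log2 signal (y axis, 3.6 log2 units high in every panel) of Pde3b, Pde7b, Adcy6, Pde4d and Foxp3 and the mean of the macrophage, B cell and naive CD4 T cell markers on LKB1-deficient arrays 1 to 5 (x axis, red points), with the range of the 5 WT arrays as a blue band. Arrays 4 and 5 stand out in macrophage markers, arrays 1, 4 and 5 in B cell markers and array 1 in Foxp3. Pde3b, Pde7b and Adcy6 are above the band on all 5, with Pde3b highest on arrays 1, 4 and 5.

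The running codes of the samples put replicates 1 to 3 of both groups in a first series (codes 1 to 6) and replicates 4 and 5 in a second (codes 7 to 10). The labels do not say what these codes mean. In the first series alone, with 3 arrays against 3, the differences were 1.47 for Pde3b, 1.64 for Pde7b and 1.05 for Adcy6, and limma called 0 genes of any kind, 2247 having an unadjusted p under 0.05. In the second series alone, with 2 arrays against 2, they were 1.61, 2.27 and 0.93, and Pde3b and Pde7b were called (limma adjusted p = 0.00297 and 0.00132) while Adcy6 was not (0.182). The LKB1-deficient arrays of the second series, 4 and 5, were those with macrophage marker means of 9.61 and 9.72. Here and below, a difference between the series cannot be told apart from one in these markers. With the series as a block all 3 were called, at adjusted p of 0.0127, 0.0235 and 0.0387.

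**Figure D4:**
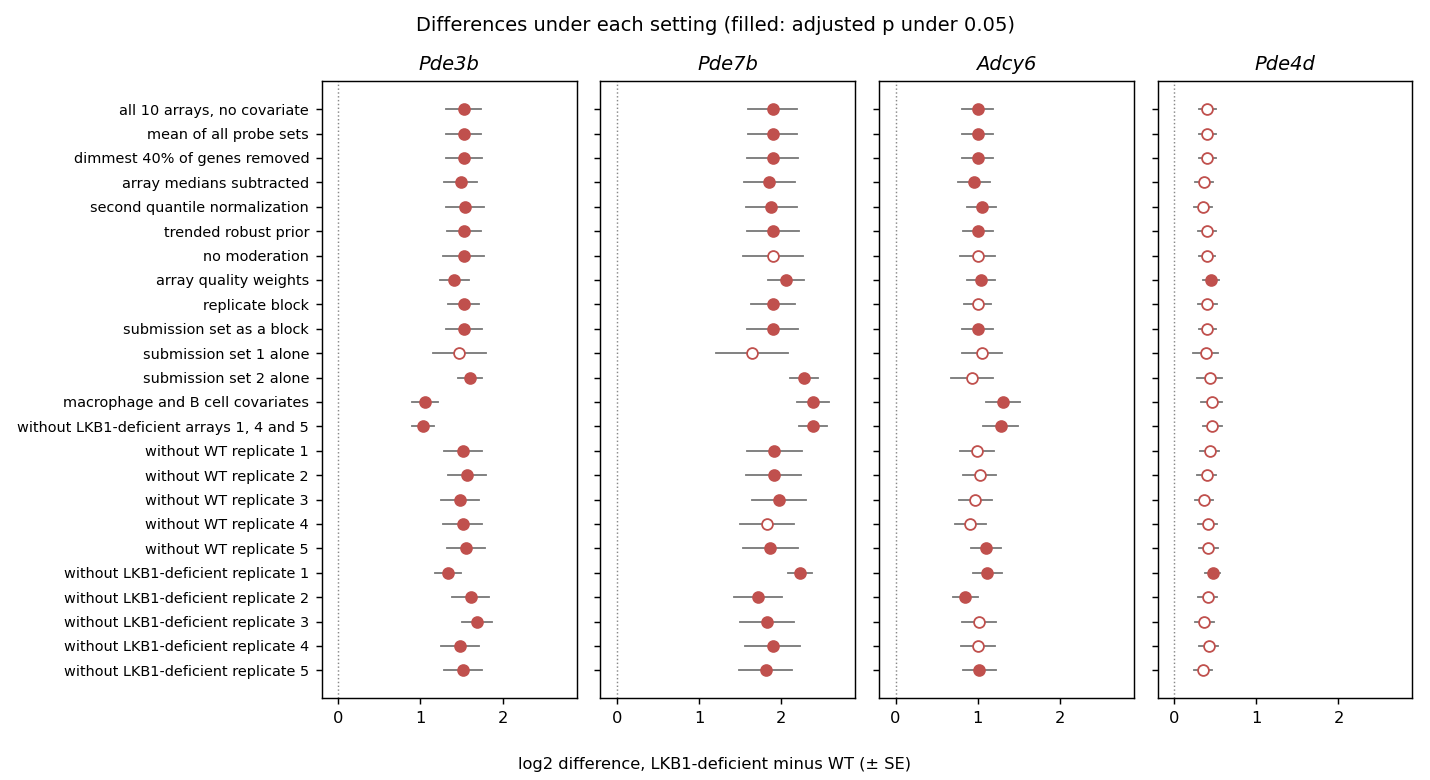
Log2 difference ± SE (x axis) of Pde3b, Pde7b, Adcy6 and Pde4d under the analysis reported and 23 alternatives (y axis), filled where the limma adjusted p was under 0.05; submission sets 1 and 2 are the first and second series of codes. All points are above 0, and Pde3b was past the threshold in 22 of the 23 alternatives, Pde7b in 20, Adcy6 in 13 and Pde4d in 2.

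Around the members, 107 genes of the cyclic AMP pathway were measured in 12 lists, and 1 was called higher (0.935%) and 5 lower (4.67%), beside 0.234% and 0.83% of all genes. The other cyclic AMP phosphodiesterases (8 genes), the cyclic GMP phosphodiesterases (8) and the other adenylyl cyclases (7) had no called gene. Pde1b, which calcium and calmodulin activate, had the smallest p of the first list with a difference of 0.33 (limma adjusted p = 0.326), which was 0.21 without LKB1-deficient array 2 and 0.52 with the macrophage and B cell covariates. Pde9a, specific for cyclic GMP, was at -0.26 (0.288), and Adcy1, a calcium-stimulated cyclase, at 0.32 (0.28). With these covariates Pde9a was at -0.17, and Adcy1 was at 0.20 in the first and 0.49 in the second series of sample codes. Median differences of the 3 lists were 0.08, -0.03 and 0.11.

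Upstream of the cyclases, 2 of 12 receptors coupled to the stimulatory G protein were called, both lower and both receptors of prostaglandin E2. Ptger2 was at 7.08, 7.17, 7.50, 7.48 and 7.13 on WT arrays and at 5.24, 6.24, 6.42, 6.55 and 6.01 on LKB1-deficient arrays, a fall with no overlap (-1.18, SE 0.21, limma adjusted p = 0.0247). Ptger4 went from 8.95 ± 0.18 (SD, n = 5) to 8.25 ± 0.22 (SD, n = 5), with a difference of -0.70 (limma adjusted p = 0.0235). The call of Ptger2 was lost when each WT array in turn was left out (adjusted p = 0.0531 to 0.0828). That of Ptger4 was lost without WT arrays 2, 3 or 4 or LKB1-deficient arrays 3 or 4 (0.0504 to 0.0823), with the macrophage and B cell covariates (0.109) and when LKB1-deficient arrays 1, 4 and 5 were omitted (0.127). Nt5e, the CD73 ectoenzyme that makes adenosine outside the cell, was the only called gene of 5 in adenosine supply and removal. It went from 9.38 ± 0.21 to 8.28 ± 0.36 (SD, n = 5 each), a difference of -1.10 with limma adjusted p = 0.0129. The threshold was missed without WT array 4 (0.0536), without moderation of the variance (0.0533) and in either series of sample codes alone (0.185 and 0.0722). Of 23 alternatives, Nt5e was past the threshold in 19, Ptger2 in 15 and Ptger4 in 12. Of 7 G protein alpha subunits none was called, Gnal, an olfactory form of the stimulatory subunit, being at 0.44 (0.292), with 0.67 in the first series of codes and 0.09 in the second.

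Among 13 receptors coupled to the inhibitory G protein, which lower cyclic AMP, the chemokine receptor Cxcr4 rose by 0.93 (limma adjusted p = 0.0192) and Ccr4 fell by 0.87 (0.0342). The call of Cxcr4 was lost without WT arrays 1, 2, 4 or 5 (adjusted p = 0.0526 to 0.0651), and that of Ccr4 without WT arrays 1, 3, 4 or 5 or LKB1-deficient arrays 2, 3 or 4 (0.0586 to 0.0995). Of 23 alternatives, Cxcr4 was past the threshold in 17 and Ccr4 in 12.

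Downstream of cyclic AMP, the protein kinase A subunits and inhibitors (8 measured), the anchoring proteins of that kinase (15) and the other effectors with the exporter Abcc4 (5) had no called gene. The kinase inhibitor Pkib was at 0.41 (limma adjusted p = 0.249), the anchoring protein Akap1 at -0.19 (0.376) and Abcc4, which pumps cyclic AMP out of cells, at -0.46 (0.173), with groups that did not overlap. With the macrophage and B cell covariates Abcc4 was at -0.24 and Pkib at 0.17, and when LKB1-deficient arrays 1, 4 and 5 were omitted they were at -0.25 and 0.18. The omitted arrays had the highest Pkib of the group, so its difference had to shrink, and arrays 4 and 5 had the lowest Abcc4. Of 7 CREB factors and coactivators none was called. Crem, which encodes activators and the cyclic AMP-induced repressor ICER, was at 5.78, 6.20, 6.23, 5.90 and 5.99 in WT and at 6.30, 6.57, 6.50, 6.69 and 6.76 in LKB1-deficient samples. All LKB1-deficient arrays were above all WT arrays, and the difference of 0.55 fell just short (limma adjusted p = 0.05004). Without LKB1-deficient array 1, the lowest of its group, it had to grow, to 0.61, and passed (adjusted p = 0.0176). The coactivator Crtc3 was lower on every LKB1-deficient array (-0.27, 0.163).

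Of 12 genes known to be induced by cyclic AMP in various cells, Junb, an AP-1 subunit, was called, and it was lower (-0.68, limma adjusted p = 0.0423). The call was lost in 8 of the 10 fits that left out a single array, those without LKB1-deficient arrays 1 or 2 being the exceptions (adjusted p = 0.0577 to 0.112). Over all 23 alternatives Junb was past the threshold in 10. Rgs2, which restrains G protein signalling, was at 0.71 (0.0542) and Sik1, a salt-inducible kinase, at 0.43 (0.0838), and both were above WT on all 5 LKB1-deficient arrays. Rgs2 was at 0.46 with the macrophage and B cell covariates (0.221), at 0.47 when LKB1-deficient arrays 1, 4 and 5 were omitted (0.264), and at 0.35 in the first and 1.24 in the second series of sample codes. Arrays 1, 4 and 5 had the highest Rgs2 of the group, so leaving them out had to shrink its difference. Rgs2 passed without LKB1-deficient array 3 (0.0481) and Sik1 without LKB1-deficient array 1 (0.0389), in each case the lowest array of the group, whose removal had to enlarge the difference. The median difference of the 12 was 0.04, with 6 estimates above 0 and 6 below.

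**Figure D5:**
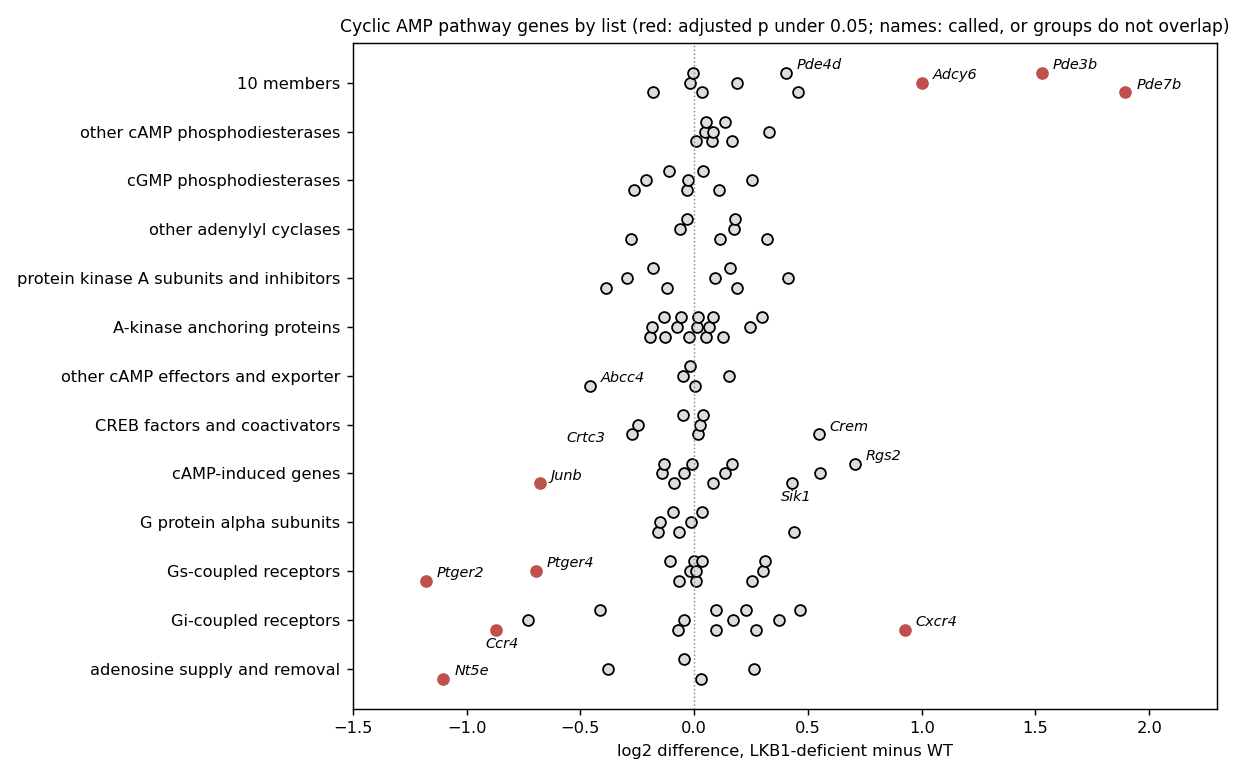
Log2 difference, LKB1-deficient minus WT (x axis), of each gene in the 10 members and the 12 pathway lists (rows), in red where called, and named where called or where the groups do not overlap. Pde7b, Pde3b and Adcy6 are the largest increases shown, Cxcr4 is the only called increase outside the members, and Ptger2 and Nt5e are the largest decreases.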

How the data were processed

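Total RNA of sorted Treg cells was amplified (NuGEN WTA Pico v2), labelled with biotin (NuGEN Encore Biotin) and hybridised to single-channel arrays, per the labels' protocols. The deposited values are log2 signals. RMA and Partek 6.6 are named in the submitters' processing notes, with order and settings not given in the sources used here. Amplification can distort levels, and quantile normalization hides shifts shared by all genes.

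The platform annotation gave 23521 of 41345 probe sets a single symbol, 1814 several and 16010 none; several-gene probe sets were not used. Of the 23521, 23328 matched RefSeq (GRCm38.p6) by Entrez identifier, with no symbol differing. The brightest probe set per gene left 22180 genes, none filtered. Groups came from the sample titles. limma 3.58.1 (R 4.3.3; lmFit, eBayes, no covariate) compared 5 with 5 arrays and was tested on simulated data. There it called 38% of differences of 0.5 in the right direction and 84% of differences of 1. A gene that was not called may therefore still differ by such an amount. The simulated noise was independent and, for each gene, equally wide on all arrays. The real arrays were less even, with a quality weight of 0.32 on LKB1-deficient array 1 against 1.17 to 1.68 on WT arrays. The rates may therefore differ in the real comparison. The number of arrays limits the precision. No 2 arrays shared more than 29 identical values.

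Members and lists were chosen with earlier results of these data known. Named are the members, Stk11, Foxp3, up to 3 genes per pathway list with the smallest p, the highest marker per cell type list, and the 3 genes closest to Pde3b, Pde7b and Adcy6, passing over clone or predicted names and antigen receptor segments. Motifs were sought as exact letters. Alternatives tried changed the probe set rule, the filter, the scaling, the variance prior, array weights, blocks, covariates, the arrays and the threshold.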

Additional observations from a re-analysis of the deposited data

Results flagged for a closer look

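Of the genes named by rule, 66 were screened in both groups, 132 groups of 5 arrays, for a highest or lowest array whose gap to its neighbour took up most of the group's range. A gap of over 0.71 of the range was found in 6 groups, and chance gives about 1 in 20. None was a member. LKB1-deficient array 1 stood low in 3 genes: Foxp3 (0.753 of the range), at 9.86 against 11.10 to 11.50, Pde6d (0.796), at 6.76 against 7.43 to 7.60, and Arfgef1 (0.756), at 7.93 against 8.32 to 8.44. LKB1-deficient array 4 stood low in Pde4c (0.773), at 4.93 against 5.39 to 5.53. WT array 2 stood high in Prkacb (0.731), at 8.81 against 8.56 to 8.63, and WT array 1 stood low in Sik1 (0.735), at 8.58 against 8.92 to 9.04.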

How the results depend on the processing

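Of the members, Pde3b, Pde7b, Adcy6, Pde4d, Pde8a, Pde4a and Pde2a kept the sign of their difference under every alternative run. In the first series of samples alone no call remained, with differences of 1.47 for Pde3b, 1.64 for Pde7b and 1.05 for Adcy6. In the second series alone Adcy6 was at 0.93 and not called. Without moderation of the variance Pde7b (1.90) and Adcy6 (1.0) were not called, and with array quality weights Pde4d was (0.45, limma adjusted p = 0.0354). Leaving out each array in turn gave 1.72 to 2.23 for Pde7b, 0.85 to 1.11 for Adcy6 and 0.35 to 0.47 for Pde4d. Small estimates turned sign, and none of these was called. Pde7a became 0.052 with a second quantile normalization, 0.30 in the second series and -0.074 to 0.086 with 1 array left out. Pde4b became 0.022 with a second quantile normalization, 0.063 in the first series and -0.058 to 0.025 with 1 array left out. Adcy7 became -0.0045 with array medians subtracted, -0.095 with the marker covariates, -0.098 without LKB1-deficient arrays 1, 4 and 5, and -0.0080 to 0.086 with 1 array left out. Foxp3 became 0.12 with array weights, 0.052 in the second series, 0.38 with the covariates, 0.36 without arrays 1, 4 and 5, and -0.18 to 0.23 with 1 array left out.

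The labels do not say whether replicate numbers pair WT and LKB1-deficient samples. Deviations of same-numbered arrays correlated at -0.08 to 0.10, which gives no sign of pairing and does not settle it. With the replicate number as a block, Adcy6 (1.0) had limma adjusted p = 0.0663, the pathway genes called lower were 2, and the genes called were 14 higher and 36 lower. The 3 members called higher became 1 without moderation, 0 in the first series, 1 at an adjusted p under 0.01, and 1 to 4 with 1 array left out. The 1 pathway gene called higher became 2 with the mean of all probe sets, 3 without the dimmest 40% of genes, 3 with a second quantile normalization, 5 with a trended prior, 0 without moderation, 4 with weights, 0 in the first series, 4 in the second, 2 with the covariates, 2 without arrays 1, 4 and 5, 0 at the stricter threshold and 0 to 5 with 1 array left out. The 5 called lower became 0 without moderation, in either series and at the stricter threshold, and 0 to 5 with 1 array left out. The 52 genes called higher became 79 with a trended prior, 17 without moderation, 135 with weights, 0 in the first series, 423 in the second, 143 with the covariates, 154 without arrays 1, 4 and 5, 5 at the stricter threshold and 8 to 180 with 1 array left out. The 184 called lower became 284 without the dimmest genes, 285 with medians subtracted, 103 with a second quantile normalization, 307 with a trended prior, 329 with weights, 0 in the first series, 46 in the second, 20 at the stricter threshold and 30 to 340 with 1 array left out. Higher calls were 22.0% of all calls, 39.4% with a second quantile normalization and 14.7% with medians subtracted. The fits on fewer arrays have less precision, and the cause of the other shifts was not tested.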
